A study of Mus musculus with 4 samples.

Results

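The genes described here are the Wnt and Fgf genes, most of which encode secreted signals of the early embryo, and the question was which of their start sites were acetylated on histone H3 in mouse embryonic stem (mES) cells. Members were all protein-coding genes of chromosomes 1 to 19 in the GENCODE annotation of mm9 whose symbol is Wnt or Fgf followed by its number, which gave 39 genes (19 Wnt and 20 Fgf genes) of 21410. Fgf13 and Fgf16 lie on the X chromosome and are therefore outside this set. Chromatin of untreated mES cells was immunoprecipitated with a rabbit polyclonal antibody against H3K9ac (AB4441), with the mouse monoclonal antibody 13HH3 against H3K14ac, or with the mouse monoclonal antibody 7G8 against H3K14ac. Input DNA without antibody was the control. The labels give the E14 line of strain 129P2/OlaHsd at passage 25-30 for all 4 libraries, whereas according to the methods wild type cells were established from blastocysts and moved from feeder cells to gelatin. Each antibody has 1 library, so no difference has a replicate check, no test between conditions was made, and every interval below is a 95% interval of the tag counts that covers counting error only.

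Wnt proteins are lipid-modified glycoproteins that bind Frizzled receptors, together with Lrp5 or Lrp6 when they stabilise β-catenin, or with Ror and Ryk receptors when they act through cell polarity pathways. Most Fgf proteins are secreted and activate receptor tyrosine kinases of the Fgfr family and the Ras cascade behind them, whereas Fgf11, Fgf12 and Fgf14 stay inside the cell. In mES cells Fgf4 is the main autocrine Fgf and drives cells towards lineage commitment, while Wnt signals favour self-renewal. Many genes of both families are silent in these cells but lie in CpG-rich promoters of developmental regulators. H3K9ac and H3K14ac are acetylations of the H3 tail that accompany active promoters and enhancers.

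The libraries held 23183487 (H3K9ac), 21626965 (13HH3), 23839094 (7G8) and 19313927 (input) mapped reads, called tags, after 1 tag per position and strand was kept. Of 8 markers of embryonic stem cells, 7 were called for H3K9ac by the rule given below, with log2 ratios over input up to 4.09 at Zfp42 (Rex1), and Esrrb was at 0.01 at its annotated first start. Markers of fibroblast feeders had 3 of 8 called, with a median log2 ratio of 0.85, against 4 of 6 for primitive endoderm, 2 of 5 for mesoderm and 4 of 4 tested for neural cells. The feeder markers ranged from -0.32 to 1.58 on this scale, and the part of other cells in the results was not tested.

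The sequences directly upstream of 7 members are shown. The first 4 are the members called for H3K14ac with 13HH3, and the last 3 are those with the least H3K9ac over input. These groups were chosen by different marks and are not the ends of the same scale. Each line holds the 150 bases that end 1 base before the transcription start site (TSS) in mm9, from 5′ to 3′ on the strand of the gene, with CpG dinucleotides in capitals.
Fgf4 (chr7:152047141-152047290, plus strand): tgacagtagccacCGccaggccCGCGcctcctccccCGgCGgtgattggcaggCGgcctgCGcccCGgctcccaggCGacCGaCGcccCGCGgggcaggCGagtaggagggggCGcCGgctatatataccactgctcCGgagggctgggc
Wnt2b (chr3:104764628-104764777, minus strand): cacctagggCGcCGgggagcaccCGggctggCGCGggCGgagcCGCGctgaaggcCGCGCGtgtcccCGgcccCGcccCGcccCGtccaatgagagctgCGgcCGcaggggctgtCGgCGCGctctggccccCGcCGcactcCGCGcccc
Wnt11 (chr7:105983472-105983621, plus strand): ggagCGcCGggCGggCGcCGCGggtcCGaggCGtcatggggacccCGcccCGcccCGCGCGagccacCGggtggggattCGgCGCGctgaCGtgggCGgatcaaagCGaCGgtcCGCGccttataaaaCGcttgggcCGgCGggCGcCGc
Fgf12 (chr16:28445314-28445463, minus strand): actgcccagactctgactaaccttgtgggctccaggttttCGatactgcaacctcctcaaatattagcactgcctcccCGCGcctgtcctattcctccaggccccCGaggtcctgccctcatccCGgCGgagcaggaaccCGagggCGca
Fgf6 (chr6:126965410-126965559, plus strand): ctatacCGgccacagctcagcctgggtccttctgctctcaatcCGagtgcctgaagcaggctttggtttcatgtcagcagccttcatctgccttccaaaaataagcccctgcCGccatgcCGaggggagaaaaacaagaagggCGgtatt
Fgf7 (chr2:125860244-125860393, plus strand): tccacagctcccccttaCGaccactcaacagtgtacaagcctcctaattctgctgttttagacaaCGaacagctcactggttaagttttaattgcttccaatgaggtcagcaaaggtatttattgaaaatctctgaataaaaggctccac
Fgf23 (chr6:127022770-127022919, plus strand): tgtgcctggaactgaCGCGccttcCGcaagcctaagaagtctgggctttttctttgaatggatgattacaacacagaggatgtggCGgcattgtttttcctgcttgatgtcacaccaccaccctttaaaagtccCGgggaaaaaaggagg

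The upstream stretches of Fgf4, Wnt2b and Wnt11 held 17, 24 and 28 CpG dinucleotides in 150 bases. Those of Fgf6, Fgf7 and Fgf23 held 5, 2 and 5, and that of Fgf12 held 8. In the wider window of 1 kb around the TSS, the members ranged from 11 CpG dinucleotides at Fgf23 to 137 at Wnt4, with a median of 57, against 45 over all genes tested. The Wnt genes were richer (median 78) than the Fgf genes (median 42.5). Among short strings searched on both strands from 250 bases before to 50 bases after the TSS, GGGCGG, the core of the GC box, was present at 26 of 39 members (66.7%) and at 44.3% of all promoters. TATAAA was present at Fgf5, Fgf21 and Wnt11 (7.69% of members, 13.5% of all promoters). CTTTGAT, the core string of Tcf and Lef proteins, was found at Wnt8a, Wnt11 and Fgf6 (7.69% of members, 3.45% of all promoters). CCAAT was present at 38.5% of members and 37.6% of all promoters. ATGCAAAT, the octamer string, was present at 0 of 39 members and at 1.72% of all promoters. These are letter matches in this window and not binding sites.

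Acetylation at the start sites was measured as tags within 2 kb on either side of the most upstream protein-coding start of each gene, per 10000000 tags of the library, and as the log2 ratio of this density to that of input. A gene was called when the log2 ratio was 1 or more (2-fold) with its interval above 0, and genes with fewer than 10 input tags were left out. All 39 members passed this minimum, as did 20475 of the 21410 genes. Input itself was denser at the members, with a median of 26.9 tags per 10000000 against 19.2 over all genes tested, and its part in the ratios was not tested.

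H3K9ac was called at 19 of the 39 members, 7 Wnt genes (36.8% of them) and 12 Fgf genes (60%), against 58.2% of all genes tested. The median log2 ratio of H3K9ac over input was 0.98 at members and 1.34 over all genes, and 8 members lay above the latter value. H3K14ac was called with 13HH3 at 4 members, namely Wnt2b, Fgf4, Wnt11 and Fgf12, against 16.6% of all genes, and all 4 were also called for H3K9ac. With 7G8, 0 of 39 members were called, against 16.9% of all genes, although 7 members had an interval above 0 (33.9% of all genes). An interval above 0 was found at 16 members for 13HH3 (41.0%, against 34.6% of all genes). For H3K9ac it was found at 31 (79.5%, against 67.4% of all genes). This rule also depends on tag number, since more tags give a narrower interval at the same ratio. Median tag densities were higher at members than over all genes for input (26.9 against 19.2) and 13HH3 (35.6 against 25.9). For H3K9ac they were not (53.9 against 55.2). Neither the difference between these shares nor the part of tag number in it was tested. The median log2 ratios over input were 0.51 (13HH3) and 0.18 (7G8) at members, and 0.36 for each antibody over all genes. Thus the 13HH3 median of the members lay above that of all genes, while the share called lay below it. With a pseudocount of 1 Wnt2b alone kept the 13HH3 call, and per tags of chromosomes 1 to 19 Wnt2b and Fgf4 kept it. The counts also depended on the window. Within 1 kb H3K9ac was called at 24 members, 12 Wnt and 12 Fgf genes (65.4% of all genes), and 13HH3 at 9 members (25.6% of all genes), without Fgf12, which was at 0.45. Within 5 kb it was called at Fgf17 and at none of the 4 genes above (5.63% of all genes), and H3K9ac was called at 6 members (45.3% of all genes).

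**Figure D1:**
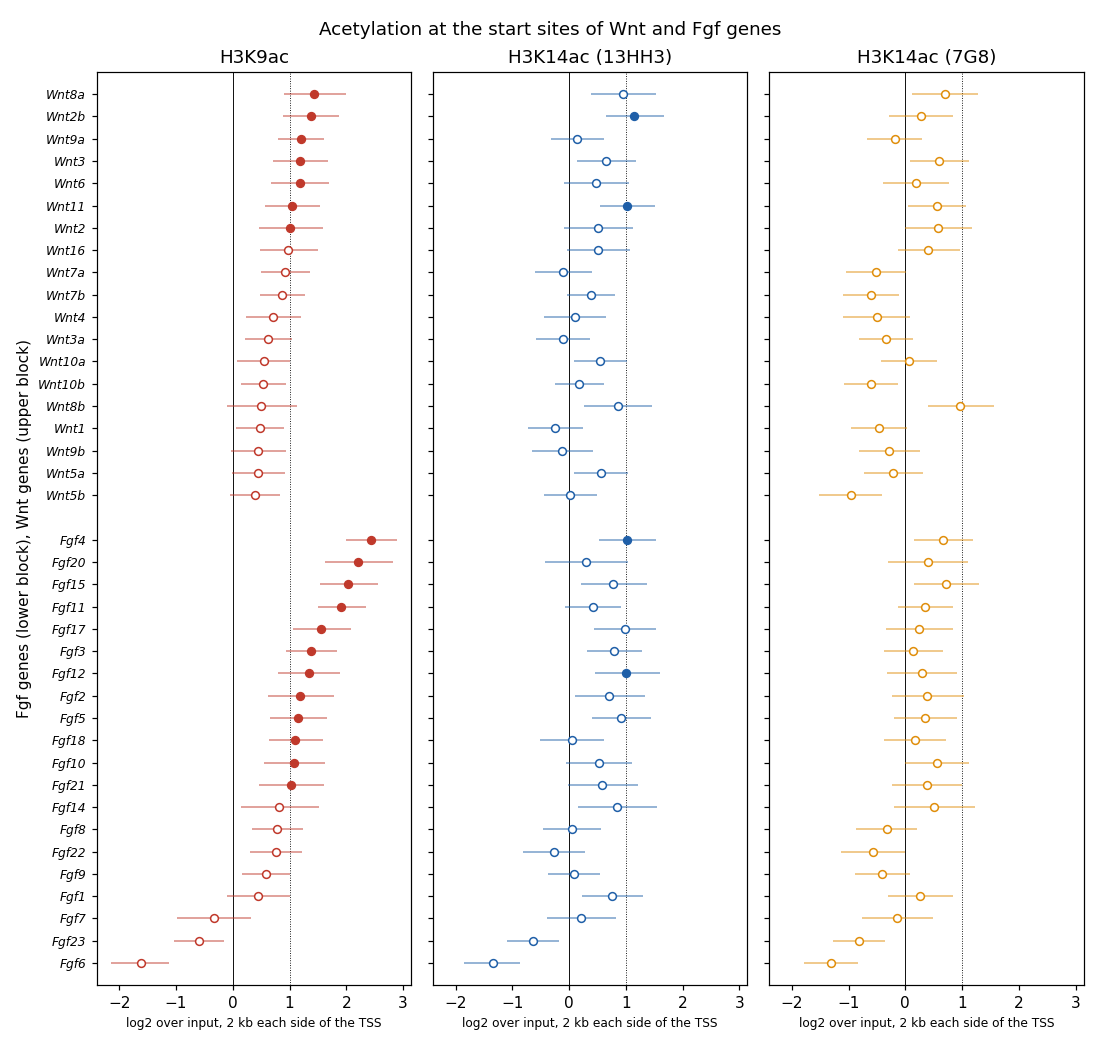
Log2 ratio over input of H3K9ac (left), 13HH3 (middle) and 7G8 (right) tags within 2 kb of the TSS for each Fgf gene (lower block) and Wnt gene (upper block), with 95% counting intervals. Filled points are called genes, open points are not called, and the dotted line is the log2 ratio of 1. Of the 39 members 19, 4 and 0 are filled, and Fgf6 lies furthest to the left in each panel, at -1.62, -1.35 and -1.30.

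The growth factor Fgf4, which mES cells secrete and respond to, had the highest H3K9ac ratio of all members. Its window on chromosome 7 (TSS at 152047291) held 323 tags of H3K9ac, 114 of 13HH3, 98 of 7G8 and 50 of input, or 139, 52.7, 41.1 and 25.9 per 10000000. The log2 ratios over input were 2.43 (1.99 to 2.89), 1.03 (0.53 to 1.54) and 0.67 (0.16 to 1.19). All 3 intervals lay above 0, and that of H3K9ac did not overlap those of H3K14ac. Fgf5, a marker of the epiblast after implantation, held 125, 99, 74 and 47 tags in the same order. Its log2 ratios were 1.15 (0.65 to 1.66) for H3K9ac, 0.91 (0.40 to 1.44) for 13HH3 and 0.35 (-0.20 to 0.91) for 7G8. Set directly against each other, the log2 ratio of 7G8 was -0.80 (-1.23 to -0.37) over H3K9ac and -0.56 (-1.01 to -0.11) over 13HH3. Fgf6, the muscle-expressed member of the same subfamily, had the lowest ratio over input in every ChIP library. It held 46, 52, 59 and 118 tags, and its log2 ratios were -1.62 (-2.15 to -1.12), -1.35 (-1.84 to -0.86) and -1.30 (-1.78 to -0.84). Its input density of 61.1 tags per 10000000 was the highest of all members.

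In the hormone-like subfamily the H3K9ac log2 ratios ran from -0.60 to 2.03. Fgf15, the gut hormone that restrains bile acid synthesis, held 196 tags of H3K9ac, 77 of 13HH3, 81 of 7G8 and 40 of input, and its H3K9ac log2 ratio was 2.03 (1.53 to 2.56). Its 13HH3 and 7G8 ratios of 0.78 (0.21 to 1.37) and 0.71 (0.15 to 1.30) also had intervals above 0. The long non-coding gene Gm17685 starts in the same window on the opposite strand, and the 2 starts cannot be told apart. Fgf21, the metabolic hormone of the liver, was called for H3K9ac at 1.03 (0.47 to 1.61) with 93, 64, 61 and 38 tags. Fgf23, which controls phosphate in the kidney, held 80, 73, 71 and 101 tags. Its log2 ratios of -0.60 (-1.04 to -0.16), -0.63 (-1.09 to -0.18) and -0.81 (-1.27 to -0.36) were below input in each library. Fgf6 and Fgf23 lie 57.4 kb apart on chromosome 6 and were the 2 members whose intervals were below 0 in all 3 ChIP libraries, which was so at 1.15% of all genes. In single libraries the interval was below 0 at 2, 2 and 6 members, and over all genes at 7.22% for H3K9ac, 4.55% for 13HH3 and 4.94% for 7G8. The other members below 0 with 7G8 were Wnt5b, Wnt7b, Wnt10b and Fgf22.

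Among the intracellular Fgf homologous factors, which bind voltage-gated sodium channels of neurons and muscle, H3K9ac was called at Fgf11 and Fgf12. Fgf11 held 266, 88, 93 and 59 tags, with a H3K9ac log2 ratio of 1.91 (1.5 to 2.34) and values of 0.41 and 0.35 for 13HH3 and 7G8 whose intervals included 0. Fgf12 held 118, 88, 59 and 39 tags, with 1.33 (0.80 to 1.90) for H3K9ac, 1.01 (0.45 to 1.59) for 13HH3 and 0.29 (-0.31 to 0.92) for 7G8. This value belongs to the first start of Fgf12. At the start shared by most of its transcripts, 46530 bp further on, the log2 ratio of H3K9ac was -2.07, that of 13HH3 was -0.88, and neither was called. Fgf14 was not called at 0.81, 0.84 and 0.50 with 59, 56, 49 and 28 tags, the lowest input count of the set, although a H3K9ac and a 7G8 peak lay in its window.

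In the Fgf8 subfamily, which patterns the gastrula and the midbrain, Fgf17 was highest with 152, 95, 63 and 43 tags. Its log2 ratios were 1.56 (1.06 to 2.08), 0.98 (0.45 to 1.54) and 0.25 (-0.33 to 0.84), so 13HH3 fell just short of a call. Fgf18, a regulator of bone growth, was called for H3K9ac at 1.10 (0.63 to 1.59) with 134, 60, 72 and 52 tags, and its 13HH3 value was 0.04. Fgf8 itself held 128, 72, 61 and 62 tags, and its log2 ratios of 0.78 (0.33 to 1.24), 0.05 (-0.46 to 0.57) and -0.33 (-0.86 to 0.21) gave no call. Of the Fgf9 subfamily, Fgf20, a factor of kidney and cochlear progenitors, had the second highest H3K9ac ratio of all members, 2.20 (1.62 to 2.82), from 160, 40, 47 and 29 tags. Its window also holds 2 starts of Efha2 on the opposite strand, so that the 2 genes cannot be told apart there. Its 13HH3 and 7G8 ratios were 0.30 and 0.39, with intervals that included 0. Fgf9 was not called at 0.58, 0.08 and -0.40.

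Fgf1 and Fgf2 are the heparin-binding factors that lack a signal peptide, and their H3K9ac intervals overlapped. Fgf2 was called at 1.18 (0.62 to 1.77) with 98, 66, 58 and 36 tags, and a long non-coding gene (Gm12541) starts within its window. Its call rested on the first start, since the start shared by most transcripts, 32409 bp downstream, had a H3K9ac log2 ratio of -0.93. Fgf1 held 75, 87, 68 and 46 tags. Over input its H3K9ac interval (0.44, -0.11 to 1.00) included 0 and its 13HH3 interval (0.76, 0.22 to 1.30) did not. Set directly against each other, 13HH3 over H3K9ac was 0.31 (-0.15 to 0.78), so the marks were not told apart. In the subfamily of Fgf7, which signals to epithelia through the b isoform of Fgfr2, Fgf3, a factor of the inner ear, was called for H3K9ac at 1.38 (0.94 to 1.84) with 175, 109, 76 and 56 tags. Fgf10, the factor of limb and lung buds, was called at 1.08 (0.56 to 1.62) with 109, 69, 78 and 43 tags, and the transcript Gm16263 starts in its window. Fgf22, known from synapse formation, was not called (0.76), and Fgf7 held 41, 56, 48 and 43 tags with a H3K9ac log2 ratio of -0.33 (-0.99 to 0.32).

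The Wnt genes lay closer together than the Fgf genes. All 19 had a H3K9ac log2 ratio above 0 (77.9% of all genes), from 0.39 at Wnt5b to 1.43 at Wnt8a. The intervals of these extremes, from -0.05 to 0.83 and from 0.90 to 1.99, did not overlap. Wnt8a, which acts in the primitive streak, held 126, 84, 78 and 39 tags, with log2 ratios of 1.43, 0.94 (0.38 to 1.53) and 0.70 (0.12 to 1.29). Wnt3, which is needed for the primitive streak to form, held 139, 90, 95 and 51 tags and was called for H3K9ac at 1.18 (0.71 to 1.68), with 0.66 (0.14 to 1.18) for 13HH3 and 0.59 (0.09 to 1.11) for 7G8. These 2 genes, Wnt11, Fgf4 and Fgf15 were the 5 members with intervals above 0 in all 3 ChIP libraries, against 23.7% of all genes. Wnt3a, the ligand widely added to cultures of mES cells, held 142, 80, 75 and 77 tags, and its log2 ratios of 0.62 (0.21 to 1.04), -0.11 (-0.58 to 0.36) and -0.34 (-0.82 to 0.14) gave no call.

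Wnt2b, a ligand of the eye and foregut, had the highest 13HH3 ratio over input of all 39 members at their first starts. It held 146, 117, 70 and 47 tags, with log2 ratios of 1.37 (0.89 to 1.88) for H3K9ac, 1.15 (0.65 to 1.67) for 13HH3 and 0.27 (-0.28 to 0.84) for 7G8. Its paralogue Wnt2, a ligand of lung and placenta, was called for H3K9ac at 1.01 (0.45 to 1.58) with 94, 62, 72 and 39 tags, and with 13HH3 its interval included 0. Wnt11, a ligand of cell movement in the gastrula, held 131, 120, 96 and 53 tags. Scaled to library totals, H3K9ac at 1.04 (0.57 to 1.53) and 13HH3 at 1.02 (0.54 to 1.51) were nearly equal there, and 7G8 was at 0.55 (0.05 to 1.07). With windows over all starts of Wnt11, H3K9ac was at 0.91 and 13HH3 at 0.53, and neither was called. Wnt6 and Wnt9a, ligands of the somite and of joints, were called for H3K9ac at 1.18 and 1.2 with 122, 70, 63 and 45 tags and with 198, 89, 78 and 72 tags. At neither of them was the 13HH3 interval above 0.

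The remaining 12 Wnt genes were not called in any library within 2 kb. For H3K9ac, Wnt16, Wnt7a, Wnt7b and Wnt4 were called when the libraries were scaled to the median of 10 kb bins, and Wnt16, Wnt7a, Wnt7b, Wnt8b and Wnt9b within 1 kb. Wnt16, a ligand of bone, and Wnt7a and Wnt7b, ligands of limb, lung and placenta, came closest with H3K9ac log2 ratios of 0.98, 0.92 and 0.87. Wnt4, of kidney and ovary, stood at 0.71. Wnt10a, Wnt10b, Wnt8b, Wnt1, Wnt9b, Wnt5a and Wnt5b ran from 0.54 down to 0.39, among them the classical midbrain ligand Wnt1 (0.47) and the polarity ligand Wnt5a (0.45). The intervals of Wnt8b, Wnt9b, Wnt5a and Wnt5b included 0. Wnt8b, a ligand of the forebrain, held 63, 75, 89 and 37 tags, which gave 0.50 (-0.10 to 1.13) for H3K9ac, 0.86 (0.27 to 1.47) for 13HH3 and 0.96 (0.39 to 1.56) for 7G8. This was the highest 7G8 ratio of all members, but the 3 intervals overlapped, and within 1 kb Wnt8b was called in all 3 libraries at 1.06, 1.4 and 1.36.

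Several members lie side by side. Wnt3 and Wnt9b, 24.3 kb apart on chromosome 11, had H3K9ac log2 ratios of 1.18 and 0.45, and Wnt9a and Wnt3a, 16.2 kb apart, had 1.2 and 0.62. Wnt6 and Wnt10a, 19.6 kb apart on chromosome 1, had 1.18 and 0.54. Wnt1 and Wnt10b, 11.7 kb apart on chromosome 15, were both low at 0.47 and 0.54. In each of these 4 Wnt pairs the 2 intervals overlapped.

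Peaks gave another view of the same libraries. Enriched windows of 400 bp were called against a local rate of input, and 34 of 39 members had at least 1 H3K9ac peak in the window of 2 kb around the TSS, against 66.3% of all genes. For 13HH3 this was 18 of 39 members (29.1% of all genes), and for 7G8 it was 6 of 39 (26.1% of all genes), namely Wnt3, Wnt8a, Wnt8b, Fgf10, Fgf14 and Fgf18. A H3K9ac peak was present at 15 of the 20 members that were not called (75.0%), whereas this was so at 27.1% of all genes not called. The 5 members without one were Wnt10a, Fgf1, Fgf6, Fgf7 and Fgf23. At Wnt10a and Fgf1 a 13HH3 peak was found in the absence of a H3K9ac peak (1.71% of all genes tested), and Fgf6, Fgf7 and Fgf23 had no peak in any library (28.8%). Over the whole TSS window of Wnt10a, H3K9ac and 13HH3 were at log2 ratios of 0.54 and 0.55 over input. Set directly against each other, 13HH3 over H3K9ac was 0.005 (-0.40 to 0.41) there, so the marks were not told apart, as at Fgf1. Wnt3, Wnt8a and Wnt8b had peaks in all 3 ChIP libraries (16.0%). At the stricter threshold of 1e-10 the counts were 17, 3 and 0 of 39, against 57.4%, 8.72% and 6.29% of all genes.

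The H3K9ac peaks at the members were narrow. The widest peak in each window had a median width of 875 bp over the 34 members, 750 bp for Wnt genes and 1275 bp for Fgf genes, against 1750 bp over all genes with such a peak. No Wnt gene had a peak wider than 1500 bp there. Peaks of 2 kb or wider reached into the windows of Fgf4, Fgf11, Fgf15 and Fgf20, against 6056 of all 14190 genes with a peak. Those in the windows of Fgf11 and Fgf20 were nearest to the starts of Tmem102 and Efha2, and the widest peak nearest to the Fgf11 start was 1700 bp. For 13HH3 the median width was 650 bp both at the 18 members and over all genes.

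The position of the acetylation was followed in bins along the TSS. Summed over the 19 Wnt genes, H3K9ac was highest in the bin of 250 bp centred 125 bp downstream of the TSS, at 2.98 times input (2.27 to 3.96). There 13HH3 reached its maximum as well, 2.26 times input (1.70 to 3.04), and that of the Fgf genes was 1.87 times input (1.38 to 2.56) at 375 bp downstream. Summed 13HH3 over all genes had its maximum of 1.84 times input at 375 bp downstream. For 7G8 no bin of the Wnt profile had an interval above 1, and 2 of the Fgf profile had, at 3375 bp upstream (1.77 times input, 1.19 to 2.69) and 1125 bp downstream (1.39 times input, 1.01 to 1.95). The Fgf genes had their H3K9ac maximum of 2.95 times input (2.29 to 3.83) at 625 bp downstream, and 2.80 times input there without Fgf4. Over all genes H3K9ac reached 4.17 times input. At their maxima both families lay below the summed profile of all genes for H3K9ac, while the 13HH3 intervals of both included the value of all genes.

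**Figure D2:**
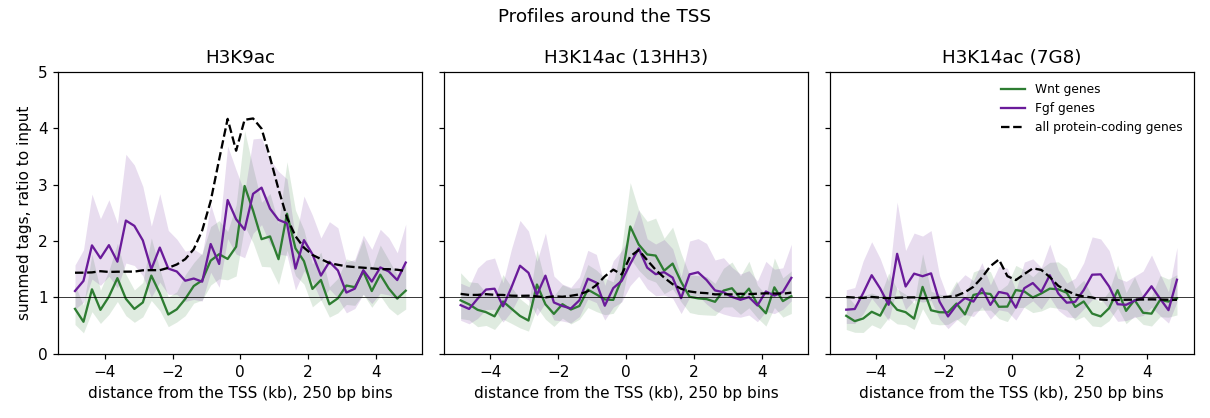
Tags summed over Wnt genes (green), Fgf genes (purple) and all protein-coding genes tested (dashed) in 250 bp bins within 5 kb of the TSS, as a ratio to input, for H3K9ac, 13HH3 and 7G8. Shaded bands are 95% counting intervals. H3K9ac at all genes reaches 4.17 times input, against 2.98 for Wnt genes and 2.95 for Fgf genes.

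The CpG content of the promoters was set beside these values. Over all genes tested, Spearman's rho between the CpG count and the H3K9ac log2 ratio was 0.71 (n = 20472 genes), as a description across genes that share libraries, depth and input. Over the 39 members it was 0.22, with 0.61 for the 20 Fgf genes and 0.04 for the 19 Wnt genes. With the 13HH3 log2 ratio over input rho was -0.20 over the members and 0.48 over all genes. With 7G8 it was -0.24 over the members and 0.38 over all genes. For 13HH3 and 7G8 the Wnt genes had -0.465 and -0.62, and the Fgf genes 0.14 and 0.32. Of the members, 25 had at least the median CpG count of all genes. H3K9ac was called at 15 of these 25, namely 9 of 10 Fgf genes and 6 of 15 Wnt genes, while it was called at 89.0% of all genes with such a CpG count. Their median H3K9ac log2 ratio was 1.08, against 2.08 for all genes with such a count. For 13HH3 the medians were 0.47 and 0.62, and for 7G8 they were 0.17 and 0.62. Below the median CpG count, H3K9ac was called at 4 of 14 members and at 27.2% of all such genes. At Wnt4, Wnt9a, Wnt5b and Fgf18, the members with the most CpG dinucleotides (137, 131, 130 and 121), the H3K9ac log2 ratios were 0.71, 1.2, 0.39 and 1.10.

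**Figure D3:**
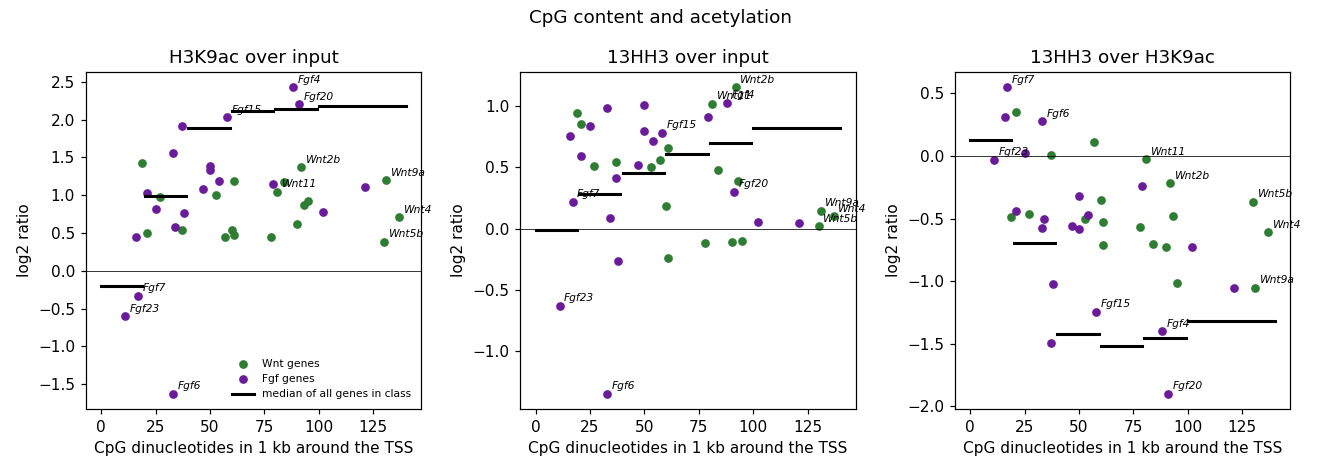
Log2 ratios of H3K9ac over input, 13HH3 over input and 13HH3 over H3K9ac against the number of CpG dinucleotides in 1 kb around the TSS, with Wnt genes in green and Fgf genes in purple. Bars are medians of all genes tested in classes of 20 CpG dinucleotides, the last class being open-ended. Most CpG-rich Wnt genes lie below the bars of H3K9ac, while Fgf4 and Fgf20 lie above them.

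H3K14ac was compared directly with H3K9ac in the same windows. The log2 ratio of 13HH3 over H3K9ac had a median of -0.50 over the members and -0.94 over all genes, and that of 7G8 over H3K9ac a median of -0.94 over the members and -1.08 over all genes. With 13HH3 the interval was below 0 at 24 of 39 members (63.8% of all genes) and above 0 at 0 of 39 (5.47% of all genes). With 7G8 it was below 0 at 32 of 39 (68.2% of all genes) and above 0 at 0 of 39 (6.88% of all genes). The highest 13HH3 ratios over H3K9ac were at Fgf7 (0.55, -0.06 to 1.17), Wnt8b (0.35, -0.15 to 0.86) and Fgf1 (0.31, -0.15 to 0.78), and each interval included 0. Fgf6 followed at 0.28 with both marks below input. The lowest ratios were at Fgf20 (-1.90), Fgf11 (-1.5) and Fgf4 (-1.40), which are 3 of the 4 members with the highest H3K9ac ratios over input. The ratio fell with CpG content, with Spearman's rho of -0.52 over the 39 members and -0.65 over all genes (n = 20469), as a description in which the H3K9ac library is shared by all points.

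The antibodies against H3K14ac gave different levels at these genes. The 7G8 density was below that of 13HH3 at 33 of 39 members, against 51.2% of all genes. The median log2 ratio of 7G8 over 13HH3 was -0.33 at members, whereas the median over all genes was -0.01. The interval of this ratio was below 0 at 14 of 39 members, 8 Wnt and 6 Fgf genes (11.4% of all genes), and above 0 at 0 of 39 (8.54% of all genes). The largest differences were at Wnt7b (-0.99, -1.45 to -0.54), Wnt5b (-0.98, -1.53 to -0.45) and Wnt2b (-0.88, -1.33 to -0.44). At Wnt7b the 117 tags of 13HH3 and 65 tags of 7G8 stood beside 80 tags of input, and the long non-coding gene AU022754, which starts in this window, had the start nearest to the 13HH3 peak there. Across the 39 members the log2 ratios over input of the antibodies had a Spearman's rho of 0.76, a description in which both ratios share the same input. Since each antibody has 1 library, antibody and library cannot be told apart.

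**Figure D4:**
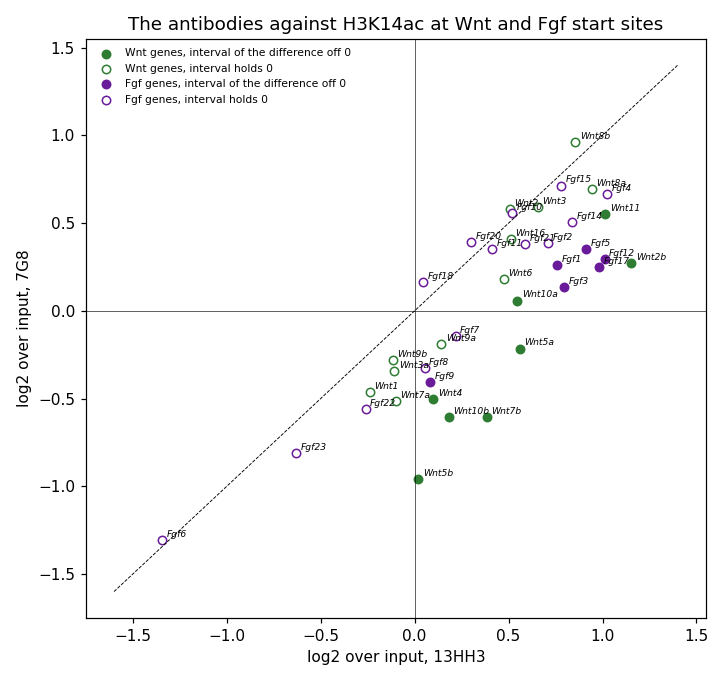
Log2 ratio over input of 7G8 (vertical) against 13HH3 (horizontal) for each member, Wnt genes in green and Fgf genes in purple. Filled points have an interval of the 7G8 to 13HH3 ratio that excludes 0, open points do not, and the dashed line marks equal values. All 14 filled points lie below the line, with Wnt5b and Wnt7b among the furthest from it.

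Fgf3, Fgf4 and Fgf15, all called for H3K9ac, are neighbours. These genes lie in the same direction on chromosome 7, with 23.3 kb from the TSS of Fgf3 to that of Fgf4 and 35.1 kb from Fgf4 to Fgf15. Over the 62871 bp from the start of Fgf3 to the end of Fgf15 (chr7:152023988-152086858) the libraries held 2386, 1349, 1222 and 735 tags, or log2 ratios over input of 1.44 (1.32 to 1.56) for H3K9ac, 0.71 (0.58 to 0.84) for 13HH3 and 0.43 (0.30 to 0.56) for 7G8. The body of Fgf4 was at 2.79 (2.30 to 3.32), 1.41 (0.87 to 1.98) and 0.97 (0.41 to 1.56). The stretch between Fgf3 and Fgf4 was at 1.62, 0.87 and 0.56, and that between Fgf4 and Fgf15 at 1.19, 0.62 and 0.43.

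**Figure D5:**
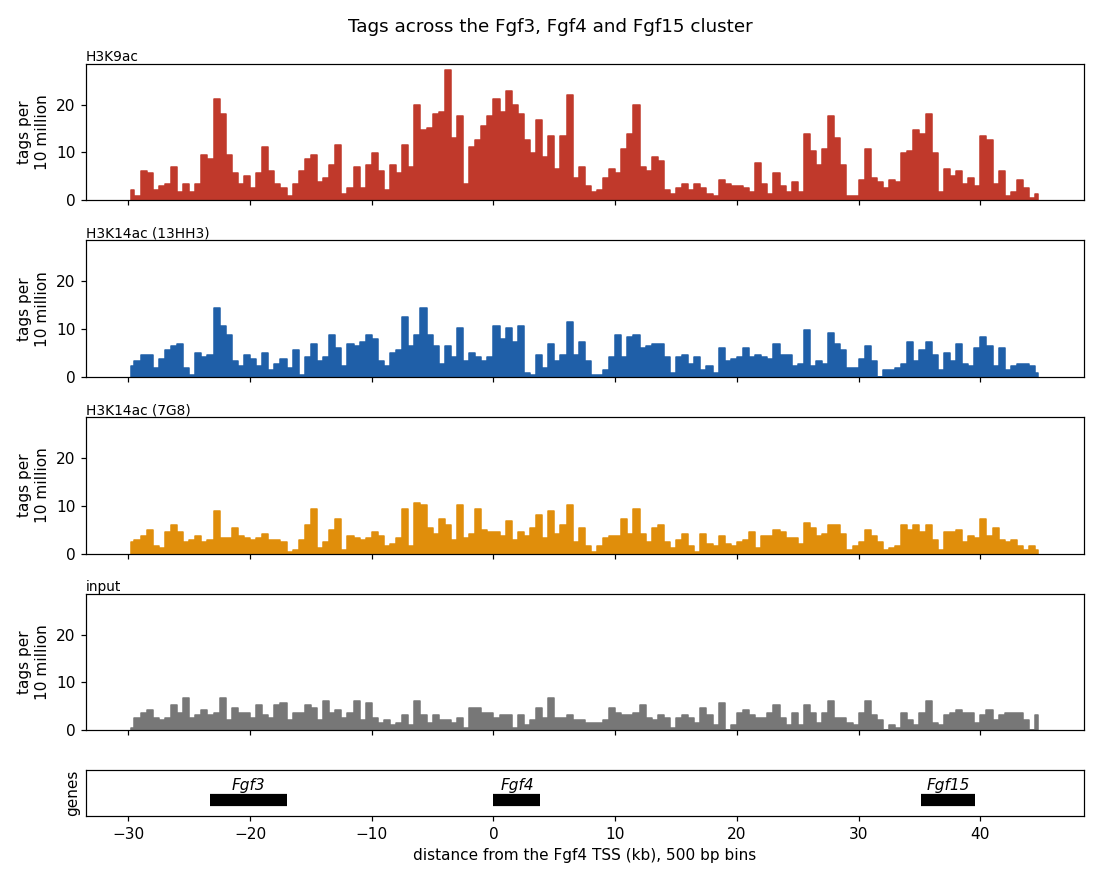
Tags per 10000000 in 500 bp bins across the Fgf3, Fgf4 and Fgf15 cluster, by distance from the Fgf4 TSS in kb, for H3K9ac, 13HH3, 7G8 and input on the same scale, with the genes as black bars. H3K9ac is raised over Fgf4 and the 10 kb upstream of it, where its log2 ratio over input is 2.46 from 2 to 10 kb.

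A H3K9ac peak of 6150 bp (chr7:152045501-152051650, 464 tags against 71 of input) covered the whole of Fgf4, and another of 4350 bp (chr7:152040551-152044900, 346 tags against 43) lay 4566 bp upstream. In the upstream peak the log2 ratios were 2.74 for H3K9ac, 1.55 for 13HH3 and 1.38 for 7G8. This peak was picked by its H3K9ac tags, so its H3K9ac ratio cannot be set against that of a fixed window. The fixed TSS window had 2.43, 1.03 and 0.67. From 2 to 10 kb upstream of Fgf4 the counts of 457, 234, 205 and 69 tags gave 2.46, 1.60 and 1.27. The next values in this stretch were 1.89 for H3K9ac, at Fgf18, and 0.98 and 1.03 for 13HH3 and 7G8, both at Fgf20, where H3K9ac was at 0.59. Fgf4 had 8 peaks of H3K9ac, 7 of 13HH3 and 8 of 7G8 for which it was the nearest annotated start or which lay inside it. The 7G8 peaks lay upstream at 2716 to 7141 bp, in the UTR exon at 3609 bp and downstream at 6259 and 11009 bp, but not at the TSS. The 13HH3 peaks included those at 434 and 2084 bp downstream of the TSS.

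The Fgf4 gene is known for an enhancer in its last exon where Sox and POU proteins bind side by side. The string CTTTGTT followed within 0 to 3 bases by ATGCTAAT or ATGCAAAT was searched on both strands within 50 kb of the Fgf4 TSS, and was found at 1 place, 3008 bp downstream of the TSS in a UTR exon, inside the wide H3K9ac peak. On chromosomes 1 to 19 the same search, with either POU string and any allowed gap, matched 113 times. The search looked for an enhancer already known, so the match is no independent finding, and enhancer activity was not tested. The 30 bases around it in mm9 are shown with the matched string in capitals.
Fgf4 (chr7:152050293-152050322, plus strand): aaaactCTTTGTTTGGATGCTAATgggata

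Within 500 bp on either side of this string there were 52 tags of H3K9ac, 3 of 13HH3, 21 of 7G8 and 6 of input. H3K9ac was at a log2 ratio of 2.85 (1.63 to 4.36) over input, 7G8 at 1.5 (0.15 to 3.10) and 13HH3 at -1.16 (-3.79 to 1.06). The 6 input tags are below the minimum of 10 used for the calls, so no call was made here, and the interval of 13HH3 included 0.

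Beyond the 2 kb windows members lay on both sides of input. The median H3K9ac log2 ratio was 0.08 over the 37 gene bodies beyond 2 kb with at least 10 input tags, 0.10 from 2 to 10 kb upstream and -0.12 in the 10 kb downstream of the 39 genes. Bodies above a log2 ratio of 1 were those of Fgf4 (2.38), Fgf17 (2.36), Wnt6 (1.18), Wnt10a (1.16) and Wnt10b (1.06). Beyond its TSS window Fgf9 lay below input, with 540, 489, 539 and 809 tags and log2 ratios of -0.85, -0.89 and -0.89 in its body, and with -1.81, -1.41 and -1.55 from 2 to 10 kb upstream. The body of Fgf17 held 216, 109, 99 and 35 tags, with 1.48 for 13HH3 and 1.2 for 7G8, and the start of Epb4.9 lies behind it, so that the 2 genes cannot be told apart there. Later starts of a gene could also carry the mark. The second start of Wnt5a, 6655 bp downstream of the first, held 111, 80, 53 and 34 tags. Its H3K9ac log2 ratio was 1.44 (0.88 to 2.04), against 0.45 (-0.02 to 0.92) at the first, and these intervals overlapped. There 13HH3 was at 1.07 (0.48 to 1.70). At the Fgf1 start 10386 bp downstream of the first, 13HH3 was at 1.30 (0.78 to 1.85), against 0.76 at the first. The start of Wnt10b at 3658 bp had a H3K9ac log2 ratio of 1.16 (0.72 to 1.61), against 0.54 (0.14 to 0.94) at the first. At Fgf1 and Wnt10b the intervals of the compared starts overlapped as well. Other later starts had lower H3K9ac ratios than the first, such as Wnt7b at 3751 bp (0.25 against 0.87) and Fgf20 at 21378 bp (1.34 against 2.20).

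Peaks were also counted away from the start sites. Of the peaks inside a member or nearest to its start within 50 kb of the gene or TSS, 135 were of H3K9ac, 65 of 13HH3 and 33 of 7G8. Of these, 51, 20 and 5 had their centre within 2 kb of the TSS. H3K9ac peaks overlapped 38 of the 65 peaks of 13HH3 (58.5%, against 47.2% of all 13HH3 peaks of chromosomes 1 to 19) and 22 of the 33 peaks of 7G8 (66.7%, against 67.3%). Upstream of Wnt11 a H3K9ac peak of 2600 bp at 19572 bp held 201 tags against 26 of input, with log2 ratios of 2.69, 1.07 and 0.90. Upstream of Wnt3, still inside its TSS window, a peak at 1364 bp held 35, 27, 28 and 5 tags. An intron of Wnt10a had a peak at 3460 bp with 82, 49, 27 and 11 tags, and the intronic peak of Fgf18 at 28275 bp held 78, 34, 57 and 12 tags. Inside Wnt5a a peak over a coding exon at 13589 bp was found with each antibody, with 48, 37, 28 and 8 tags in the H3K9ac peak. Fgf1 had 12 peaks of 13HH3, 4 of H3K9ac and 3 of 7G8, the most 13HH3 peaks of any member.

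The other genes of these pathways were taken from lists of known components. Over all genes tested 58.2% were called for H3K9ac, 16.6% for 13HH3 and 16.9% for 7G8. The lists had higher median CpG counts than the members (57), up to 95 at the Wnt receptors, except Wnt secretion and secreted antagonists (39). Of all genes with at least the median CpG count 89.0% were called for H3K9ac, and the part of CpG content in the shares was not tested. In each list the share called for H3K9ac was larger than the 48.7% of the 39 members. Against the Fgf genes alone (12 of 20, 60%) this was not so for the Fgf receptors and co-receptors (4 of 7). Of 15 Wnt receptors 14 were called for H3K9ac, 2 for 13HH3 and 2 for 7G8, with a median H3K9ac log2 ratio of 1.82, and Fzd3 (2.48), Fzd8 (2.44) and Ror2 (2.36) were highest. Of 12 genes of Wnt secretion and secreted antagonists 9, 2 and 1 were called (median 1.35), led by the antagonist Frzb (2.02), the carrier Wls (1.85) and the inhibitor Wif1 (1.85). Of 19 intracellular Wnt components 18, 4 and 4 were called (median 1.8), led by Csnk1a1 (4.0), Gsk3b (3.32) and Apc (3.12) of the complex that degrades β-catenin. Of 11 Wnt targets 8, 1 and 0 were called (median 1.43), with Ccnd1 (2.75), Znrf3 (2.32) and Axin2 (1.83) highest. Axin2 and Lef1 are in both of the last 2 lists.

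Of 7 Fgf receptors and co-receptors 4, 2 and 2 were called (median 1.04), and Fgfr2 stood at 3.50, with 2.41 for 13HH3 and 1.12 for 7G8. Fgfrl1 (2.01) and Fgfr1 (1.58) followed. Of 14 intracellular Fgf components 13, 1 and 5 were called (median 2.37), with the kinase Map2k2 (3.01) and the adaptor Grb2 (2.76) among the highest. Hras was not analysed here. All 12 feedback and target genes of Fgf were called for H3K9ac, 7 for 13HH3 and 3 for 7G8 (median 2.21), led by Egr1 (3.05), Spry2 (3.01) and Dusp6 (3.01). The shares called for H3K9ac in the lists other than the receptors of Fgf thus lay above the 58.2% of all genes. That of the Wnt and Fgf genes together lay below it within 2 kb (48.7%). Of the families only the Wnt genes (36.8%) lay below it within 2 kb, and the Fgf genes (60%) lay just above. This contrast depended on the window. Within 1 kb 12 of 19 Wnt genes and 12 of 20 Fgf genes were called. There the Wnt share was not the lower, and both shares lay below that of all genes. With the libraries scaled to the median of 10 kb bins the joint share was not below (26 of 39 members, 65.7% of all genes).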

How the data were processed

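ChIP-seq was performed by the authors on mES cells with 3 antibodies, and input DNA was sequenced as the control. Per the methods, single-end reads were aligned with ELAND to mm9 with up to 1 mismatch. The authors deposited 1 line per mapped read with its position and strand, each spanning 36 bases in the files, and a score column in which the deposited count is 1 on every line, without normalization. Repeated positions were absent from 3 files, while 738711 tags (3.30%) of the 13HH3 file repeated a position and strand and were dropped. No tag lay past a chromosome end of NCBIM37, whose GENCODE M1 annotation gave the TSSs, with 1 TSS per gene. Tags were moved 100 bp downstream, counted within 2000 bp of the TSS and scaled per 10000000 tags of the library. Intervals of the ratio of 2 counts are exact (conditional binomial, Clopper-Pearson). Peaks were windows of 400 bp past a Poisson threshold of 1e-05 over the highest of the genome mean and the scaled input in 1, 5 and 10 kb, after the local rate of MACS, which itself was not run. Profiles used bins of 250 bp in place of the planned 100 bp. The peak caller and the call were tested on simulated data. Every member is named, with counts for those called, for 7 genes of early development, and for the lowest H3K9ac and highest 13HH3 ratios over H3K9ac. Of each pathway list the 3 genes highest for H3K9ac are named, except 1 gene that is not reported here. Members and lists were chosen with earlier results of these data known. Windows, repeats, scaling, pseudocount, start sites and thresholds were varied. Calculations used pandas 2.3.3, scipy 1.17.1 and numpy 2.4.6 in Python 3.11.15, and plots were drawn with matplotlib 3.10.9. Expression data were not used here.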

Additional observations from a re-analysis of the deposited data

Results flagged for a closer look

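At 6 of the 39 members the antibodies against H3K14ac lay on opposite sides of input, 13HH3 above and 7G8 below, with an interval of the 7G8 to 13HH3 ratio that excluded 0. These were Wnt7b, with a log2 ratio of 7G8 over 13HH3 of -0.99, Wnt5b (-0.98), Wnt10b (-0.79), Wnt5a (-0.77), Wnt4 (-0.60) and Fgf9 (-0.49). The same was so at 7.38% of all genes tested in either direction. At Wnt5b the counts were 84 tags of 13HH3, 47 of 7G8 and 74 of input, and at Wnt5a they were 104, 67 and 63. At 0 of the 6 was the interval of 13HH3 over input above 0 while that of 7G8 was below it. No replicate of either antibody was analysed here, so the difference between antibodies was not tested beyond counting error.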

How the results depend on the processing

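Depth limits these values to the counting error of 28 to 118 input tags per member window, and 1 library per antibody leaves the variation between libraries unknown. No paired analysis was possible because each antibody has 1 library. With windows of 5 kb, H3K9ac was called at 6 members and 13HH3 at 1, the H3K9ac median was 0.55 and the median of 13HH3 over H3K9ac -0.32. With windows of 1 kb, 13HH3 was called at 9 members and 7G8 at 1 (Wnt8b, 24.0% of all genes). At 1.5-fold, 13HH3 was called at 14 (33.2% of all genes) and 7G8 at 5 (32.9%). The 13HH3 count was 2 per tags of chromosomes 1 to 19 (16.0% of all genes), 1 with a pseudocount of 1 and no input minimum (14.6%), and 2 with windows over all starts (13.9%). Scaling to the median of 10 kb bins gave H3K9ac calls at 26 members (11 Wnt genes in place of 7, 65.7% of all genes), moved the H3K9ac median to 1.33 at members and from 1.34 to 1.70 over all genes, and set the medians to -0.78 for 13HH3 and -1.34 for 7G8 over H3K9ac. At the peak threshold of 1e-10, 17, 3 and 0 members had a peak of H3K9ac, 13HH3 and 7G8. With the start shared by most transcripts, Fgf12 turned to -2.07 for H3K9ac and -0.88 for 13HH3, and Fgf2 to -0.93 for H3K9ac. Over the 3 libraries, 26 members and 9 settings (windows, repeats, scaling, pseudocount, shift and starts) gave 702 values. Of these, 672 stayed within their main interval, 27 moved beyond it and 3 called values turned below 0. Part of this was fixed beforehand, since scaling moved all values of a library by the same amount, and repeats occurred only with 13HH3. The scale from the 10 kb bins was 0.78 of the library total for H3K9ac, 0.95 for 13HH3 and 1.035 for 7G8, so H3K9ac moved most. Calls near the threshold could change within the interval. The 26 were those called, the 7 genes of early development and the extremes of the ratios. Wnt7a and Wnt9b, left out, moved beyond their main H3K9ac intervals within 1 kb, to 1.41 and 1.11. The cause of each change beyond the window or start used was not tested.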
